A study of Mus musculus with 13 samples.

Results

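The proteasome genes described here are those of the deposited expression table whose symbols run from Psma to Psmg followed by a digit and whose mean over the 13 libraries was at least 1 FPKM (fragments per kilobase of gene, scaled to library depth). They are 46 of the 19737 genes in the table, from 50 symbols of that form. The 4 left out had means of 0.844 FPKM (Psma8), 0.812 (Psmg3), 0.593 (Psmc3ip) and 0.000842 (Psmb11), and the member nearest the threshold was Psmd9 at 1.54 FPKM. By role, 14 members form the constitutive core (Psma1 to Psma7 and Psmb1 to Psmb7), 3 the immunoproteasome (Psmb8, Psmb9 and Psmb10), 5 the activators (Psme1, Psme2, Psme2b, Psme3 and Psme4) and 20 the regulatory particle (Psmc1 to Psmc6 and Psmd1 to Psmd14). The remaining 4 are Psmf1, the proteasome inhibitor PI31, and the core assembly chaperones Psmg1, Psmg2 and Psmg4.

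The proteasome degrades proteins marked with ubiquitin. Its core is a barrel of stacked rings of alpha subunits (Psma genes) and beta subunits (Psmb genes), and Psmb5, Psmb6 and Psmb7 carry the cutting sites. Interferon is known to induce replacement subunits, Psmb8 for Psmb5, Psmb9 for Psmb6 and Psmb10 for Psmb7, which make the immunoproteasome and favour peptides that MHC class I molecules can present. The regulatory particle caps the core: its Psmc subunits are ATPases that unfold substrates, and most of its Psmd subunits hold the particle together or receive and trim ubiquitin, while Psmd5, Psmd9 and Psmd10 are assembly chaperones. The activators are alternative caps, with Psme1 and Psme2 forming the interferon-inducible PA28 complex, Psme3 the nuclear PA28 gamma and Psme4 PA200. In the brain, microglia are known as a main site of immunoproteasome expression.

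The study asked how giving neurons a double-stranded circular RNA affects microglia, the brain's resident macrophages, in 5xFAD mice, a model of Alzheimer's disease whose mutant human APP and presenilin transgenes are driven by the neuronal Thy1 promoter. The groups were WT mice given AAV PHP.eB-EGFP, a virus vector for green fluorescent protein (n = 3), 5xFAD mice given the same vector (n = 2), 5xFAD mice given AAV PHP.eB-circPOLR2A, a circular RNA vector (n = 4), and 5xFAD; PKR KO mice, which lack the double-stranded RNA sensor kinase PKR and for which no vector is named (n = 4). They are called wild type, 5xFAD EGFP, circRNA and PKR knockout below, and all but wild type carry 5xFAD. The treatment labels of the circRNA libraries read circPOLR2A(9,10), (9,11), (9,12) and (9,13) for replicates 1 to 4, while the series text gives (9,10) for the group, and whether the constructs differed is not settled. Age, sex, the promoter of each vector, the kind of PKR deletion and how the microglia were isolated are not given in the sources used here. Library names are recorded for the PKR knockout libraries and for no other group, so a difference in their making cannot be told apart from the knockout or from the missing vector. No label says that the libraries came from separate mice, and p-values then measure the spread between these libraries, which may be technical.

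Recovered depth was 45.2 to 70.0 M (mega) fragments per library, and every member had at least 103 fragments in every library (the fewest were for Psmg4). All 7 microglia markers were detected in every library, with summed levels of 2395 to 4010 FPKM. Wild type replicate 3 stood apart: its 6 oligodendrocyte markers summed to 1580 FPKM, against 352 and 392 in the other wild type libraries and 225 to 786 in the 5xFAD groups, its neuron (19.3 FPKM over 7 genes) and astrocyte (179 FPKM over 6 genes) sums were the highest of the 13, and its microglia sum was the lowest. Markers of border macrophages (5 genes) summed to 36.0 to 57.4 FPKM in wild type and 13.3 to 24.3 in the 5xFAD groups with no overlap, and all 5 fell against wild type in each 5xFAD group (limma, adjusted p under 0.05). Endothelial and mural markers (7 genes) summed to 74.4 to 166 FPKM in wild type and 31.4 to 84.1 in the 5xFAD groups, and 5, 4 and 5 of the 7 fell against wild type in 5xFAD EGFP, circRNA and PKR knockout. Within 5xFAD the oligodendrocyte sums were 636 and 680 FPKM with EGFP, 306 to 786 with circRNA and 225 to 375 in PKR knockout, where 0 of the 6 markers passed in any comparison. No marker of these lists was at 0 in any library. Eif2ak2, which encodes PKR, was at 3.35, 4.61, 3.31 and 4.16 FPKM in the PKR knockout libraries, below all 6 of the other 5xFAD libraries (6.49 to 8.11) but not at 0. Wild type stood at 5.18, 5.23 and 4.14 FPKM, and the knockout libraries overlapped it. On the log2 scale it was 0.85 higher with circRNA than in PKR knockout (adjusted p = 0.00147), and the change in PKR knockout against 5xFAD EGFP was -0.64 (adjusted p = 0.0644).

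For the members the results turn on, the promoter windows of RefSeq (build GRCm38.p6, 250 bases before to 50 after the start) are printed first. They are shown because Psmb8 and Psme1 rose most against wild type with circRNA and in PKR knockout, Psmb6 was the constitutive catalytic gene that rose in all 3 comparisons with wild type, and Psmb5 is the partner that Psmb8 replaces. A script searched both strands for an interferon-stimulated response element (GAAA, any 2 bases, GAAA), a gamma-activated site (TTCNNNGAA) and an antioxidant response element (TGACNNNGC), and the capitals mark the match. Coordinates are for the window, and each sequence reads 5′ to 3′ on the gene's strand.
Psmb8, chr17:34197945-34198244, plus strand, gamma-activated site: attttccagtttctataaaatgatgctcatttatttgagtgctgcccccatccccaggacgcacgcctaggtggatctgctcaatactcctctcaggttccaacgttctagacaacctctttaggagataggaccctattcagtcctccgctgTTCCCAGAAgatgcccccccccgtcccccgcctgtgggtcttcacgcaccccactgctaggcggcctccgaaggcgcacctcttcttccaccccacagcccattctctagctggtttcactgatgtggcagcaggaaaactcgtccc
Psme1, chr14:55578244-55578543, plus strand, interferon-stimulated response element on the opposite strand: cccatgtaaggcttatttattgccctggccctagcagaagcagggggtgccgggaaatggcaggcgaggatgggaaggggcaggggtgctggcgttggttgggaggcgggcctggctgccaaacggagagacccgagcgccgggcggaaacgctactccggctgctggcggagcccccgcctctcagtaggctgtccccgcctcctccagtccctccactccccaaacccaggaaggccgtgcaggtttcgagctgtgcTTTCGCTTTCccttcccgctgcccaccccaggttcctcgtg
Psmb6, chr11:70525107-70525406, plus strand, antioxidant response element: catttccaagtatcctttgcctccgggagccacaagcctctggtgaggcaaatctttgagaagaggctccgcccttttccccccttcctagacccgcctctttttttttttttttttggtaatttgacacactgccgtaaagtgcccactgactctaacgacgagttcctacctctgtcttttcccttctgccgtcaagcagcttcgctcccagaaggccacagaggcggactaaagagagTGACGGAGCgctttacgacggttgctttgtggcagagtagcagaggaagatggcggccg
Psmb5, chr14:54617946-54618245, minus strand, antioxidant response element: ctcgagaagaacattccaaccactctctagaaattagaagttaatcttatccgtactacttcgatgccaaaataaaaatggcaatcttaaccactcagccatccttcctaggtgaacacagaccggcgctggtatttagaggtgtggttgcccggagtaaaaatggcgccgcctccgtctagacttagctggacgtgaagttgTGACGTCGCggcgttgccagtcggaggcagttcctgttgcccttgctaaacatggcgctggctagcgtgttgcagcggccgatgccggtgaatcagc

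Promoter windows were matched for 39 of the 46 members (42 windows). The interferon-stimulated element was in 5 members (Psmb3, Psmd4, Psmd9, Psme1 and Psmg4) and in 3.44% of all 32851 windows. The gamma-activated site was in 3 members (Psmb8, Psmd2 and Psmg1), against 8.30% of all windows, and the antioxidant element in 6 (Psmb5, Psmb6, Psmc6, Psmd9, Psmd12 and Psme4), against 12.4%. Psmb9 held none of the 3. Its window lies head to head with that of Tap1, the peptide transporter gene, on chromosome 17, where the windows share 275 bases. A match is only a run of letters in these windows, and a window without one says nothing about any factor.

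On the per-length FPKM scale, the highest by mean over the 13 libraries were Psme2b at 42.6 FPKM, Psme1 at 25.2, Psmc3 at 18.7, Psmb10 at 18.2 and Psma6 at 17.8, and the lowest was Psmd9 at 1.54. Median levels were 7.57 FPKM for the constitutive core (3.91 for Psma3 to 17.8 for Psma6) and 6.81 FPKM for the regulatory particle. By list, the median coefficient of variation over the libraries was 22.8% for the immunoproteasome and 19.9% for the activators. It was 12.4% for the constitutive core, 11.4% for the inhibitor and assembly genes and 10.8% for the regulatory particle. Psmb8 was the most variable member at 30.4%. Single genes did not all follow their list: Psmg4 was at 24.9% and Psmb6 at 22.2%, and the activators Psme3 and Psme4 were at 7.79% and 8.87%. The members together made up 0.297% ± 0.021 of the summed FPKM in wild type (SD, n = 3), 0.284% ± 0.0081 in 5xFAD EGFP (n = 2), 0.311% ± 0.017 with circRNA (n = 4) and 0.299% ± 0.0092 in PKR knockout (n = 4). A single library, circRNA replicate 3, held the highest value of 35 of the 46 members, and wild type replicate 3 the lowest of 23.

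**Figure D1:**
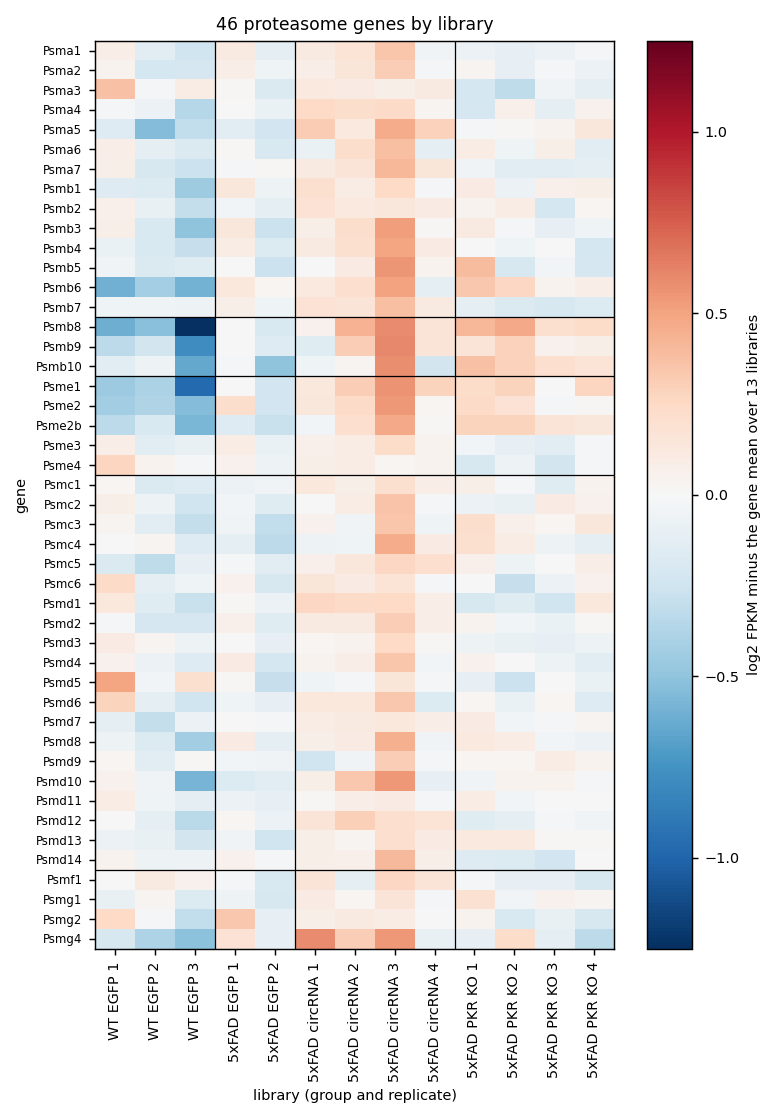
Each of the 46 proteasome genes (rows, in blocks by role) in each of the 13 libraries (columns), coloured by log2 FPKM minus the gene's mean over the libraries, red above and blue below. The Psmb8, Psmb9 and Psme1 rows are lowest in the wild type columns, and the column of circRNA replicate 3 is the highest for 35 of the 46 genes.

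Each 5xFAD group was first set against wild type. Tests were made with limma on log2(FPKM + 1) over 10817 genes, and a member is said to rise or fall where its adjusted p was under 0.05. In 5xFAD EGFP, 2 of 46 members rose, Psmb6 and Psmb8, where 7.65% of all genes rose, and 0 fell where 6.35% fell (1 at an unadjusted p under 0.05, where 13.8% of all genes were). With circRNA, 19 of 46 (41.3%) rose where 17.8% of all genes did, and 0 fell where 8.05% did (0 also at an unadjusted p under 0.05, where 13% of all genes were). In PKR knockout, 10 of 46 (21.7%) rose where 17.5% of all genes did, and 2 (4.35%) fell where 19.4% did. These 3 comparisons share the wild type libraries. Read without a test, every library of the 5xFAD group was above wild type for 8 members in 5xFAD EGFP (16.5% of all genes), 23 with circRNA (20.2%) and 12 in PKR knockout (19.8%), and below for 1 (21.1% of all genes), 0 (8%) and 5 (21.1%).

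The split into higher and lower depended on how libraries were scaled. With each library rescaled to the same FPKM sum, the median change of all genes moved from -0.03 to -0.17 in 5xFAD EGFP, from 0.02 to -0.20 with circRNA and from -0.05 to -0.24 in PKR knockout. The members' calls then became 1 higher and 8 lower, 6 higher and 7 lower, and 5 higher and 15 lower. Of all genes, 6.55%, 9.2% and 10.9% were called higher under that scaling and 27.7%, 43.3% and 50.1% lower. Under that scaling Psme1, Psme2, Psmb6 and Psmb8 remained called as higher with circRNA and in PKR knockout, and Psma5 and Psmg4 with circRNA and Psme2b in PKR knockout did too. Among the genes called as higher on the deposited scale, Psmb7, Psmd7 and Psmd13 with circRNA and Psmc5 in PKR knockout changed sign, without being called lower. Median-ratio scaling gave 5, 22 and 18 members higher and 0 lower, where 10.2%, 17.9% and 25.5% of all genes were higher and 5.94%, 9.99% and 13.4% lower.

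**Figure D2:**
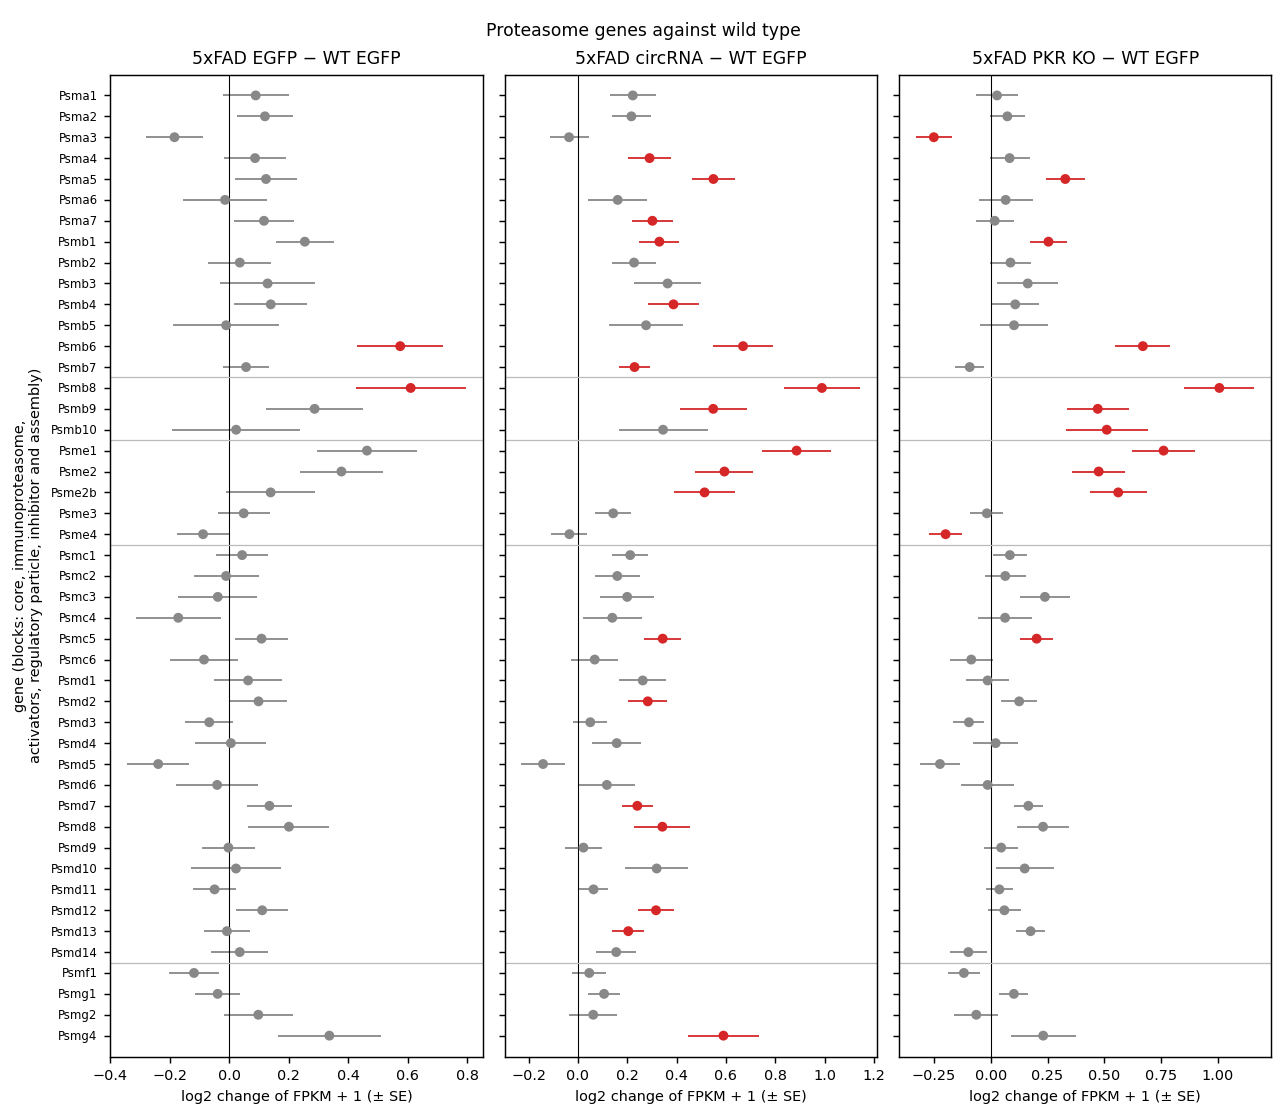
Log2 change of each of the 46 genes against wild type with its standard error (limma, log2(FPKM + 1)), in 5xFAD EGFP (2 against 3 libraries), circRNA (4 against 3) and PKR knockout (4 against 3). Red marks an adjusted p under 0.05: 2, 19 and 12 genes, of which the 2 below 0 are Psma3 and Psme4 in PKR knockout, while rescaling to the same FPKM sum gives 8, 7 and 15 genes called lower.

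Of the immunoproteasome genes, Psmb8 had the largest change against wild type in each of the 3 comparisons. Psmb8 (chromosome 17, 34197721 to 34201454, GRCm38) encodes the inducible subunit that takes the place of Psmb5. It stood at 7.27, 7.74 and 4.69 FPKM in wild type, 11.0 and 9.70 in 5xFAD EGFP, 11.5, 15.0, 16.7 and 12.4 with circRNA, and 14.8, 15.4, 12.8 and 13.0 in PKR knockout. Every 5xFAD library was above every wild type library, and within 5xFAD both EGFP libraries were the lowest. Against wild type the log2 change was 0.61 in 5xFAD EGFP (SE 0.18, adjusted p = 0.0464, 1.58-fold by group means), 0.99 with circRNA (SE 0.15, adjusted p = 0.000570, 2.12-fold) and 1.01 in PKR knockout (SE 0.15, adjusted p = 0.000380, 2.13-fold).

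The calls with circRNA and in PKR knockout held in all 13 alternative fits each, with the lowest estimates 0.73 and 0.80. The call in 5xFAD EGFP held in 3 of 11. It was lost without wild type replicate 1 (adjusted p = 0.0579) or 3 (0.42, adjusted p = 0.0786) and with the replicate number as a block (0.56, adjusted p = 0.0997). Rescaling to the same FPKM sum (adjusted p = 0.0569), no filter (adjusted p = 0.0678) and a fit of only the 2 groups (adjusted p = 0.172) also ended it. With 1 EGFP library left, the estimate was 0.52 without 5xFAD EGFP replicate 1 and 0.69 without replicate 2. Within 5xFAD the estimate was 0.38 for circRNA minus EGFP (SE 0.18, adjusted p = 0.739) and 0.40 for PKR knockout minus EGFP (SE 0.18, adjusted p = 0.365), and neither passed. An annotated antisense gene, Gm20496, overlaps 498 exon bases of Psmb8, and how the counting treated strand is not given in the sources used here, so reads of the pair cannot be told apart.

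Psmb9 (chromosome 17, 34181987 to 34187764, GRCm38) and Psmb10 (chromosome 8, 105935735 to 105938444, GRCm38) encode the replacements for Psmb6 and Psmb7. Psmb9 was at 3.74, 4.02 and 2.73 FPKM in wild type, 4.69 and 4.20 in 5xFAD EGFP, 4.21, 5.83, 7.13 and 5.26 with circRNA, and 5.25, 5.72, 4.88 and 4.94 in PKR knockout. All 10 of the 5xFAD libraries were above wild type, the nearest pair being 4.20 and 4.02. It rose with circRNA (0.55, SE 0.14, adjusted p = 0.0109) and in PKR knockout (0.47, SE 0.14, adjusted p = 0.0177), while the estimate in 5xFAD EGFP was 0.29 (SE 0.16, adjusted p = 0.298). Each call held in 11 of 13 alternative fits. With libraries rescaled to the same FPKM sum both were lost (0.31, adjusted p = 0.0531, and 0.29, adjusted p = 0.0658), as were the circRNA call in a fit of only its 2 groups (adjusted p = 0.0564) and the PKR knockout call without wild type replicate 3 (adjusted p = 0.0696). Exons of Psmb9 and Tap1 overlap by 212 bases on opposite strands, and Tap1 itself rose in all 3 comparisons (0.55, 0.88 and 0.67), so its part in the values of Psmb9 was not tested.

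Psmb10 did not separate all 5xFAD groups from wild type. Its levels were 16.0, 16.9 and 11.4 FPKM in wild type, 17.6 and 12.5 in 5xFAD EGFP, 17.1, 18.2, 26.5 and 15.1 with circRNA, and 22.9, 21.7, 20.5 and 19.9 in PKR knockout. Each PKR knockout library was above every wild type and 5xFAD EGFP library, while the circRNA libraries overlapped both groups. The change against wild type was 0.51 in PKR knockout (SE 0.18, adjusted p = 0.0423), 0.34 with circRNA (SE 0.18, adjusted p = 0.190) and 0.02 in 5xFAD EGFP (SE 0.22, adjusted p = 0.965). The PKR knockout call held in 5 of 13 alternative fits and was lost without any 1 library of either group other than wild type replicate 2, for example at 0.35 without wild type replicate 3 (adjusted p = 0.157). It was also lost with libraries rescaled to the same FPKM sum (0.29, adjusted p = 0.116) and with no filter on low values (adjusted p = 0.0582). Psmb10 was also among the 3 members with the smallest unadjusted p for PKR knockout minus EGFP within 5xFAD (0.49, SE 0.20, unadjusted p = 0.0338, adjusted p = 0.343).

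**Figure D3:**
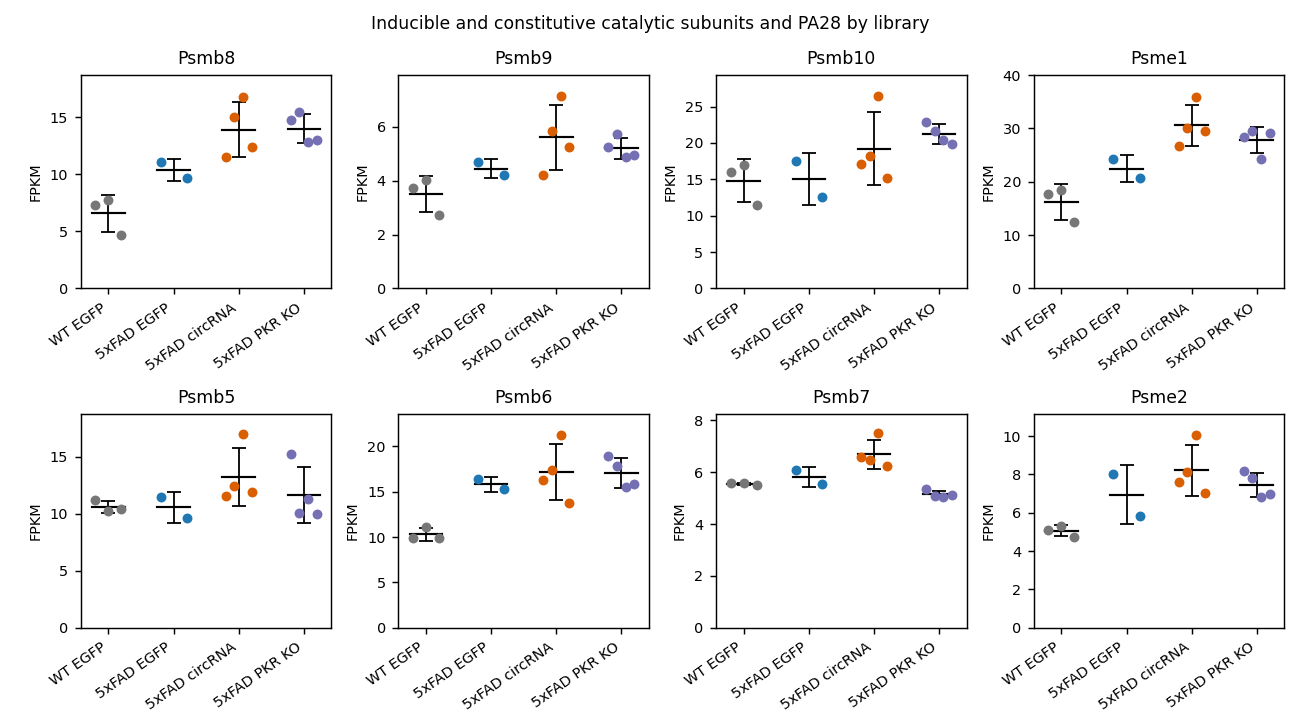
FPKM in each library (points) with group mean and SD (bars) for the inducible catalytic genes Psmb8, Psmb9 and Psmb10, their constitutive partners Psmb5, Psmb6 and Psmb7, and the PA28 genes Psme1 and Psme2, in wild type (n = 3), 5xFAD EGFP (n = 2), circRNA (n = 4) and PKR knockout (n = 4). Psmb8, Psmb6, Psme1 and Psme2 are lowest in wild type with no overlap, while Psmb5 passed the test in no comparison.

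The PA28 genes were also lowest in wild type. Psme1 (chromosome 14, 55578123 to 55581529, GRCm38), the alpha subunit, was at 17.8, 18.5 and 12.4 FPKM in wild type, 24.3 and 20.7 in 5xFAD EGFP, 26.6, 30.1, 35.9 and 29.5 with circRNA, and 28.4, 29.5, 24.3 and 29.2 in PKR knockout. Wild type was lowest without overlap, and the circRNA libraries were all above the 5xFAD EGFP libraries. It rose with circRNA (0.89, SE 0.14, adjusted p = 0.000584) and in PKR knockout (0.76, SE 0.14, adjusted p = 0.00129), in all 13 alternative fits of each. The 5xFAD EGFP estimate of 0.46 did not pass (SE 0.17, adjusted p = 0.0907).

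Psme2 (chromosome 14, 55587441 to 55591113, GRCm38), the beta subunit, was at 5.12, 5.33 and 4.74 FPKM in wild type, 8.04 and 5.84 in 5xFAD EGFP, 7.62, 8.12, 10.1 and 7.03 with circRNA, and 8.16, 7.80, 6.82 and 6.98 in PKR knockout. Again no 5xFAD library fell into the wild type range, and the 3 5xFAD groups overlapped. It rose with circRNA (0.59, SE 0.12, adjusted p = 0.00287) and in PKR knockout (0.48, SE 0.12, adjusted p = 0.00810), also in all 13 alternative fits of each, and 0.38 in 5xFAD EGFP did not pass (SE 0.14, adjusted p = 0.103). Its near copy Psme2b on chromosome 11 was the most abundant member, at 28.2 to 36.8 FPKM in wild type, 34.5 and 37.4 in 5xFAD EGFP, 40.8 to 58.1 with circRNA and 46.2 to 50.8 in PKR knockout. Of the 75-base words in Psme2b's transcripts 60.2% also occur in other genes' transcripts, so how reads were split between the pair is uncertain. Summed over the pair, the levels were 37.8 ± 4.6 (SD, n = 3), 42.9 ± 3.6 (n = 2), 55.6 ± 9.2 (n = 4) and 56.0 ± 3.1 FPKM (n = 4) in the same order of groups.

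Psme3 and Psme4, the other caps, rose in no comparison, and Psme4 fell in PKR knockout against wild type. Psme4 was at 8.44, 7.19 and 6.92 FPKM in wild type and 6.10, 6.69, 5.96 and 6.86 in PKR knockout (log2 change -0.20, SE 0.07, adjusted p = 0.0484). The groups did not overlap, the nearest values being 6.92 and 6.86. That call held in 5 of 13 alternative fits. Median-ratio scaling, the replicate number as a block (-0.21, adjusted p = 0.0588) and a fit of only the 2 groups (adjusted p = 0.120) ended it. It was also lost without wild type replicate 1 or 2 or PKR knockout replicate 1, 2 or 3. Over the 5 activators the median change was 0.14, 0.51 and 0.48 in 5xFAD EGFP, circRNA and PKR knockout against wild type, beside -0.03, 0.02 and -0.05 for all genes, and they became -0.03, 0.23 and 0.28 when libraries were rescaled to the same FPKM sum.

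In the constitutive core, Psmb6 stood out. Psmb6 (chromosome 11, 70525367 to 70527858, GRCm38) encodes the cutting subunit that Psmb9 replaces. Its levels were 9.87, 11.1 and 9.94 FPKM in wild type, 16.4 and 15.2 in 5xFAD EGFP, 16.2, 17.3, 21.2 and 13.8 with circRNA, and 18.9, 17.9, 15.5 and 15.9 in PKR knockout. Wild type was below all 10 of the 5xFAD libraries, and the 5xFAD groups overlapped. The log2 change was 0.57 in 5xFAD EGFP (SE 0.14, adjusted p = 0.0192, 1.53-fold), 0.67 with circRNA (SE 0.12, adjusted p = 0.00154) and 0.67 in PKR knockout (SE 0.12, adjusted p = 0.00117). The latter calls held in all 13 alternative fits each, and the first in 7 of 11. That call was lost without wild type replicate 1 (adjusted p = 0.0581) and in a fit of only the 2 groups (adjusted p = 0.0542). With 1 EGFP library left, the estimate was 0.52 without 5xFAD EGFP replicate 1 and 0.62 without replicate 2.

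Psmb5 and Psmb7 are the remaining constitutive cutting subunits. Psmb5 (chromosome 14, 54614119 to 54618022, GRCm38) was at 11.2, 10.2 and 10.4 FPKM in wild type, 11.5 and 9.61 in 5xFAD EGFP, 11.6, 12.4, 17.0 and 11.9 with circRNA, and 15.2, 10.0, 11.3 and 9.98 in PKR knockout. It passed in no comparison (adjusted p of 0.206 to 0.979), and 36.8% of its 75-base words occur in other genes. Psmb7 (chromosome 2, 38588036 to 38644087, GRCm38) was at 5.58, 5.57 and 5.51 FPKM in wild type, 6.08 and 5.55 in 5xFAD EGFP, 6.57, 6.46, 7.51 and 6.23 with circRNA, and 5.34, 5.09, 5.02 and 5.12 in PKR knockout. Both ends are separate here: the circRNA libraries were the highest of all and the PKR knockout libraries the lowest of all. Psmb7 rose with circRNA against wild type (0.23, SE 0.06, adjusted p = 0.0195), though it changed sign when libraries were rescaled to the same FPKM sum, and its PKR knockout estimate was -0.09 (SE 0.06, adjusted p = 0.270).

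Counted over the 14 constitutive core genes, 1 rose in 5xFAD EGFP, 7 with circRNA (Psma4, Psma5, Psma7, Psmb1, Psmb4, Psmb6 and Psmb7) and 3 in PKR knockout (Psma5, Psmb1 and Psmb6), and Psma3 fell in PKR knockout. The shares that rose were 7.14%, 50% and 21.4%, beside 7.65%, 17.8% and 17.5% of all genes, so those of 5xFAD EGFP and PKR knockout lay near the share of all genes. Psma5, an alpha-ring subunit, was at 5.71, 4.39 and 5.15 FPKM in wild type, 5.80 and 5.39 in 5xFAD EGFP, 7.97, 6.96, 8.80 and 7.80 with circRNA, and 6.32, 6.47, 6.57 and 7.06 in PKR knockout. The circRNA and the PKR knockout libraries were all above both EGFP groups. Its change against wild type was 0.55 with circRNA (SE 0.09, adjusted p = 0.000584), 0.33 in PKR knockout (SE 0.09, adjusted p = 0.0112) and 0.12 in 5xFAD EGFP (SE 0.10, adjusted p = 0.498). Of its 75-base words 35.2% are shared, with Gm8394 and Gm12989, so the split of its reads is uncertain.

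Psma3, another alpha-ring subunit, was at 4.99, 3.85 and 4.13 FPKM in wild type and 3.34, 3.12, 3.77 and 3.60 in PKR knockout. It was lower there without overlap (-0.25, SE 0.08, adjusted p = 0.0262), and the call held in 8 of 13 alternative fits but not under median-ratio scaling, nor without wild type replicate 1 or PKR knockout replicate 1 or 2. The core's median change was 0.10, 0.28 and 0.08 in 5xFAD EGFP, circRNA and PKR knockout, and became -0.05, 0.02 and -0.12 with libraries rescaled to the same FPKM sum. With 1 library left out it ran from 0.0073 (without 5xFAD EGFP replicate 1) to 0.18 (without wild type replicate 1) in 5xFAD EGFP, from 0.23 to 0.33 with circRNA, and from 0.024 (without wild type replicate 3) to 0.14 (without wild type replicate 1) in PKR knockout.

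Of the 20 genes of the regulatory particle, 0 passed in 5xFAD EGFP (1, Psmd5, at an unadjusted p under 0.05), 6 rose with circRNA (Psmc5, Psmd2, Psmd7, Psmd8, Psmd12 and Psmd13) and 1 in PKR knockout (Psmc5). These are 0%, 30% and 5% of the 20, beside 7.65%, 17.8% and 17.5% of all genes. Medians against wild type were 0.00, 0.18 and 0.06, and -0.14, -0.08 and -0.14 with libraries rescaled to the same FPKM sum. With 1 library left out they ran from -0.046 to 0.061 in 5xFAD EGFP, from 0.10 (without circRNA replicate 3) to 0.24 (without wild type replicate 1) with circRNA, and from -0.00075 (without wild type replicate 3) to 0.12 (without wild type replicate 1) in PKR knockout. Psmc5, an ATPase of the base, was at 12.6, 11.5 and 13.3 FPKM in wild type, 14.0 and 12.9 in 5xFAD EGFP, 14.9, 15.7, 17.1 and 16.5 with circRNA, and 14.9, 13.6, 14.2 and 15.1 in PKR knockout. The circRNA and PKR knockout libraries lay above wild type, by 0.34 (SE 0.07, adjusted p = 0.00487) and 0.20 (SE 0.07, adjusted p = 0.0493). Among the inhibitor and assembly genes, the chaperone gene Psmg4 alone passed, with circRNA against wild type (0.59, SE 0.14, adjusted p = 0.00998). Its levels were 3.68 to 4.58 FPKM in wild type and 4.90 to 7.90 with circRNA.

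Within 5xFAD, circRNA was set against EGFP to ask what the circular RNA did to these genes. Of the 46 members 0 passed, as did 0% of all genes, and 8 members were higher and 0 lower at an unadjusted p under 0.05, where 4.54% and 0.296% of all genes were. The fitted change was above 0 for 45 of the 46, where it was above 0 for 77.7% of all genes. In 25 of the 46 every circRNA library was above both EGFP libraries, where this held for 16.6% of all genes, and in 0 of them below both, where this held for 2.65%. Those 25 included 8 of 14 core genes, 13 of 20 regulatory particle genes, Psmb8, Psme1 and Psme2b. The median change was 0.17 over the members and 0.08 over all genes.

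The counts at an unadjusted p and the median moved with the scaling and with single libraries. The counts by sign and by overlap were not repeated in other fits. At an unadjusted p under 0.05, 2 members were higher with libraries rescaled to the same FPKM sum (0.86% of all genes), 3 under median-ratio scaling (1.18%), 1 without 5xFAD EGFP replicate 2 (0.758%) and 13 without 5xFAD EGFP replicate 1 (4.93%). The members' median became 0.074, 0.099, 0.10 and 0.24 in these fits. Neuron markers (7 genes) summed to 16.1 and 13.7 FPKM in 5xFAD EGFP, 4.32 to 13.3 with circRNA and 5.49 to 9.48 in PKR knockout, so both of the latter groups were lower without overlap, though 0 of the 3 neuron markers that could be tested passed. Their part in either comparison with EGFP was not tested.

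Psma5 had the smallest unadjusted p of the members in that comparison (0.43, SE 0.10, unadjusted p = 0.000892, adjusted p = 0.739). After it came Psmd13, a lid subunit (0.21, SE 0.07, unadjusted p = 0.0143), and Psmc5 (0.24, SE 0.08, unadjusted p = 0.0156), both with an adjusted p of 0.739. Psmd13 was at 5.67 and 4.94 FPKM in 5xFAD EGFP and 6.15, 5.98, 6.78 and 6.27 with circRNA, with no overlap. The estimates of the inducible genes were 0.38 (Psmb8), 0.26 (Psmb9), 0.32 (Psmb10), 0.42 (Psme1) and 0.22 (Psme2), each with an adjusted p of 0.739.

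PKR knockout against EGFP within 5xFAD also gave 0 of 46 members called, where 0.0832% of all genes rose and 0% fell, and 5 members higher and 0 lower at an unadjusted p under 0.05, where 7.41% and 5.57% of all genes were. The 5 became 9 under median-ratio scaling (12.8% of all genes) and in a fit of only the 2 groups (12.4%). They became 3 with libraries rescaled to the same FPKM sum (5.57%), where 3 were lower (10.5%). They became 1 without PKR knockout replicate 1 or 2 (5.58% and 5.95%). Leaving out 5xFAD EGFP replicate 2 leaves 1 EGFP library, and the median change of the members then moved from 0.031 to -0.048. In 13 members every knockout library was above both EGFP libraries (17.7% of all genes), and in 2, Psma7 and Psmb7, every one was below (17% of all genes). All 3 immunoproteasome genes were among the 13, with a median change of 0.40 (0.26 without 5xFAD EGFP replicate 2), while the core median was 0.00, the regulatory particle median 0.03 and that of all genes 0.01. Without 5xFAD EGFP replicate 2 the core median was -0.086, and without 5xFAD EGFP replicate 1 it was 0.089 and that of the regulatory particle 0.11. The smallest unadjusted p values belonged to Psme2b (0.42, SE 0.14, unadjusted p = 0.0113, adjusted p = 0.247), Psmd13 (0.18, adjusted p = 0.330) and Psmb10. Psmb9, Psme1 and Psme2 had estimates of 0.18, 0.30 and 0.10 with adjusted p of 0.611, 0.438 and 0.763. Both comparisons rest on the same 2 EGFP libraries, of which replicate 2 held the lowest value of 9 members and replicate 1 of none.

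**Figure D4:**
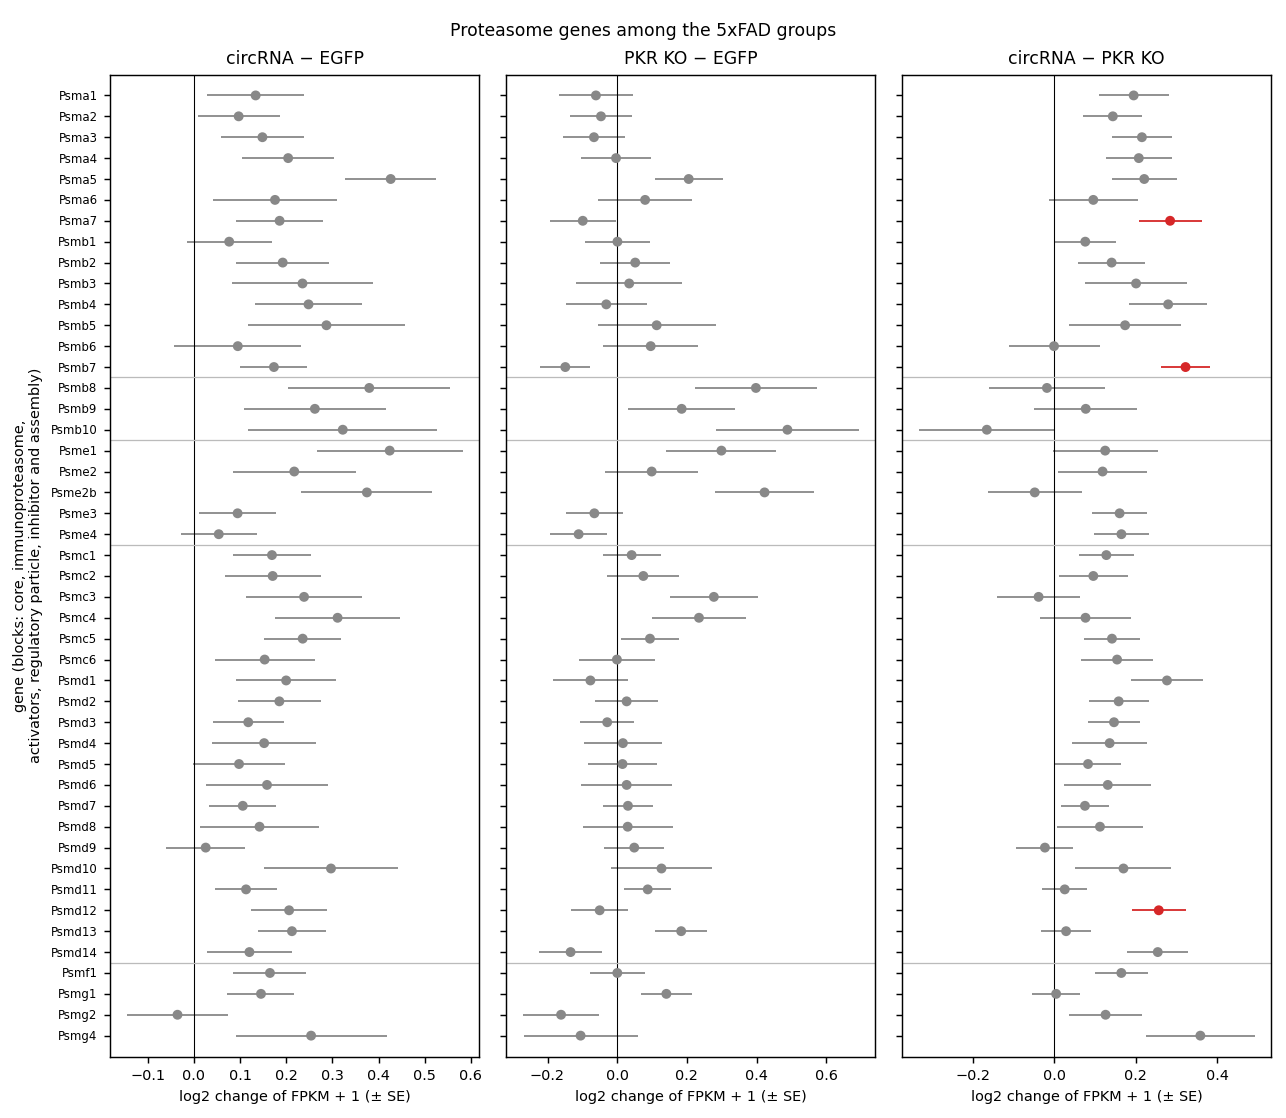
Log2 change with its standard error for the 46 genes among the 5xFAD groups: circRNA minus EGFP (4 against 2 libraries), PKR knockout minus EGFP (4 against 2) and circRNA minus PKR knockout (4 against 4). Red marks an adjusted p under 0.05, which is reached by Psma7, Psmb7 and Psmd12 in the third panel only, and 45 of the 46 points of the first panel lie above 0.

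With circRNA set against PKR knockout, 3 of 46 members (6.52%) were higher with circRNA where 4.28% of all genes were, and 0 were lower where 1.91% of all genes were (0 members also at an unadjusted p under 0.05, where 5.9% of all genes were). Without overlap, 11 members were higher (15.1% of all genes) and 0 lower (4.44%). The 3 called were Psmb7 (0.32, SE 0.06, adjusted p = 0.0128), Psmd12, a lid subunit (0.26, SE 0.07, adjusted p = 0.0441), and Psma7, an alpha-ring subunit (0.28, SE 0.08, adjusted p = 0.0499). Psmb7 was higher in all 14 alternative fits, Psmd12 in 2 and Psma7 in 3, and leaving out any 1 of the 8 libraries ended both of the latter calls. Psmd12 was at 7.65, 8.44, 7.90 and 7.74 FPKM with circRNA and 6.15, 6.35, 6.76 and 6.64 in PKR knockout, and Psma7 at 8.44, 8.72, 10.4 and 8.69 against 7.56, 7.07, 7.14 and 7.18. Neither gene overlapped between the groups. Exons of Psmb7 and Nek6 overlap by 405 bases on opposite strands, and Nek6 itself differed by 0.11 (adjusted p = 0.609).

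The inducible genes did not pass between those groups. The estimates were -0.02 for Psmb8 (SE 0.14, adjusted p = 0.953), 0.08 for Psmb9 (SE 0.13, adjusted p = 0.741), -0.17 for Psmb10 (SE 0.17, adjusted p = 0.566), 0.12 for Psme1 (SE 0.13, adjusted p = 0.579) and 0.12 for Psme2 (SE 0.11, adjusted p = 0.526). Psmb9 and Psme1 turned to -0.03 and -3e-05 under median-ratio scaling. The medians were -0.02 for the immunoproteasome, 0.20 for the core, 0.13 for the regulatory particle and 0.08 for all genes. Without circRNA replicate 3 the first 3 were -0.11, 0.14 and 0.064, and without circRNA replicate 1 that of the immunoproteasome was 0.063.

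The ratio of an inducible subunit to the subunit it replaces does not depend on how a library is scaled. Psmb8 over Psmb5 was 0.619 ± 0.16 in wild type (SD, n = 3), 0.984 ± 0.035 in 5xFAD EGFP (n = 2), 1.06 ± 0.11 with circRNA (n = 4) and 1.24 ± 0.24 in PKR knockout (n = 4). Every 5xFAD library was above every wild type library, and the mean log2 ratio was higher by 0.70, 0.80 and 1.01 (exact two-sided permutation p = 0.2, 0.0286 and 0.0286). Adjusted over the 18 ratio tests these were 0.533, 0.129 and 0.129, and 0.0571 is the smallest adjusted value these 18 tests could reach. Without wild type replicate 3, which had the lowest ratio, the differences were 0.49, 0.59 and 0.80.

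Psmb9 over Psmb6 showed no such separation. It was 0.339 ± 0.056 in wild type, 0.281 ± 0.0071 in 5xFAD EGFP, 0.328 ± 0.051 with circRNA and 0.306 ± 0.019 in PKR knockout (SD, n as above), and all 6 pairs of groups overlapped. Both genes were higher in the 5xFAD groups than in wild type in every library. Differences in log2 ratio against wild type were -0.26, -0.04 and -0.13 (exact permutation p = 0.4, 0.8 and 0.371).

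Psmb10 over Psmb7 was higher in PKR knockout than in each other group without overlap, though no adjusted p was under 0.05. It was 2.66 ± 0.52 in wild type, 2.57 ± 0.45 in 5xFAD EGFP, 2.84 ± 0.48 with circRNA and 4.13 ± 0.18 in PKR knockout (SD, n as above). The lowest knockout library, at 3.89, was above the highest of the other 9, a circRNA library at 3.52. Psmb7, the lower term of this ratio, was itself lowest in PKR knockout (5.02 to 5.34 FPKM). The log2 difference for PKR knockout was 0.65 against wild type (exact permutation p = 0.0286), 0.69 against 5xFAD EGFP (p = 0.0667, exact, the smallest this design allows), and circRNA minus PKR knockout was -0.55 (exact p = 0.0286), with adjusted values of 0.129, 0.240 and 0.129. With each library left out in turn, these stayed between 0.48 and 0.76, between 0.51 and 0.87, and between -0.66 and -0.48. The other comparisons of this ratio overlapped. Over the 6 catalytic genes, the inducible share of the summed FPKM was 48.0% ± 5.1, 48.0% ± 2.1, 50.9% ± 1.6 and 54.5% ± 1.8 in the same order.

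**Figure D5:**
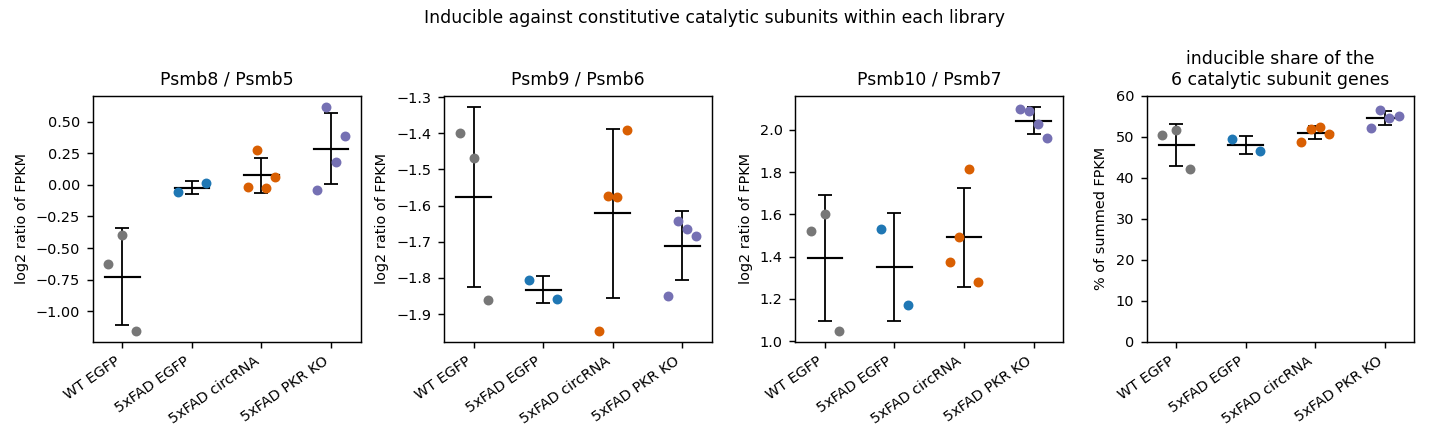
Log2 ratio of FPKM of each inducible subunit gene to the gene it replaces, and the inducible share of the summed FPKM of the 6 catalytic genes in percent, in each library (points) with group mean and SD. Psmb8 over Psmb5 is lowest in the 3 wild type libraries, and Psmb10 over Psmb7 is highest in the 4 PKR knockout libraries.

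Other genes of the ubiquitin and proteasome pathway were counted from a fixed list of 26 tested genes. Against wild type, 2 rose in 5xFAD EGFP, 11 with circRNA and 8 in PKR knockout, and Akirin2, which brings proteasomes into the nucleus, fell in PKR knockout (-0.49, SE 0.11, adjusted p = 0.00471). The shares that rose were 7.69%, 42.3% and 30.8%, beside 7.65%, 17.8% and 17.5% of all genes, so that of 5xFAD EGFP lay at the share of all genes. Akirin2 was 1 of 26 to fall (3.85%), where 19.4% of all genes fell. Pomp, the chaperone that completes core assembly, rose in all 3 (0.35, 0.60 and 0.44, adjusted p = 0.0467, 0.000363 and 0.00230). It was at 4.72 to 5.48 FPKM in wild type and 6.69 to 9.77 in the 5xFAD groups, with no overlap. Its 5xFAD EGFP call lay near the threshold, and calls of these list genes were not checked in the alternative fits. Nfe2l2, whose product NRF2 is a regulator of proteasome genes, rose with circRNA (0.62, adjusted p = 0.00562) and in PKR knockout (0.81, adjusted p = 0.000784). Of the 4 listed regulators of proteasome gene expression, 2 (Nfe2l2 and Ddi2) rose in each of these comparisons, and Nfe2l1 and Ngly1 did not pass.

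Usp14, a deubiquitinase that binds the regulatory particle, rose with circRNA against wild type (0.31, adjusted p = 0.00319) and was higher with circRNA than in PKR knockout (0.35, SE 0.06, adjusted p = 0.00861). Its levels were 3.08 to 3.59 FPKM with circRNA and 2.27 to 2.54 in PKR knockout. Of the 26, 2 were higher with circRNA than in PKR knockout and 1 lower (7.69% and 3.85%), where 4.28% and 1.91% of all genes were. Txnl1, a thioredoxin-like protein of the regulatory particle, was also higher with circRNA than in PKR knockout (0.33, adjusted p = 0.0289). Against EGFP within 5xFAD, 0 of the 26 passed with either circRNA or PKR knockout.

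Of 13 tested genes of peptide transport, MHC class I and the interferon-responsive factors, the route the immunoproteasome serves, 8 rose in 5xFAD EGFP, 12 with circRNA and 11 in PKR knockout against wild type, and 0 fell. Of all genes 7.65%, 17.8% and 17.5% rose and 6.35%, 8.05% and 19.4% fell. H2-D1, a class I heavy chain, was at 58.2 to 73.6 FPKM in wild type and 205 to 290 in the 5xFAD groups (changes of 1.60, 1.88 and 1.96, adjusted p = 3.3e-05, 8e-07 and 4.66e-07). Nlrc5, the class I transactivator, rose by 1.10, 1.53 and 1.61. The members' own changes, up to 1.01 for Psmb8, were smaller than those of H2-D1. Irf1, a factor known to act on immunoproteasome genes, was higher in PKR knockout than with circRNA, at 16.2 to 20.9 against 11.0 to 15.4 FPKM (circRNA minus PKR knockout -0.42, SE 0.11, adjusted p = 0.0491). It is the only one of the 13 that passed between these groups, and 0 passed against EGFP within 5xFAD. The Irf1 call lay near the threshold, and calls of these 13 genes were not checked in the alternative fits.

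Levels in these bulk samples cannot tell fewer cells of a type from less RNA per cell. Beside the changes against wild type, border macrophage markers and most endothelial and mural markers were lower in every 5xFAD group, and wild type replicate 3, the library richest in oligodendrocyte markers, was lowest for 23 members. Beside the PKR knockout comparisons within 5xFAD, all 4 knockout libraries had lower oligodendrocyte sums than both EGFP libraries. The part of these in the results was not tested. Without that library 1, 14 and 8 members rose in 5xFAD EGFP, circRNA and PKR knockout against wild type, where 8.96%, 15% and 15.3% of all genes did, and 0, 0 and 2 fell, where 9.51%, 8.81% and 19.7% did. Without it the changes of Psmb8 with circRNA and in PKR knockout kept their calls. Without circRNA replicate 3, 16 members rose with circRNA against wild type and 0 fell, where 14.3% and 8.02% of all genes did.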

How the data were processed

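The authors deposited 1 table of FPKM values for 19737 genes in 13 microglia libraries, 1 column for each. Per the labels' protocols, RNA was extracted with TRIzol, depleted of ribosomal RNA and made into stranded total RNA libraries. Bowtie2 2.3.5, HISAT2 2.1.0, featureCounts 1.5.1 and mm10 are named in the submitters' processing notes, without their roles. The strand setting of the counting is not given in the sources used here. Libraries were grouped by title.

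The members and gene lists were chosen with earlier results of these data known. Genes averaging 1 FPKM or more (10817) entered a limma fit (version 3.58.1, R 4.3.3) of log2(FPKM + 1), in which all 13 libraries shared 9 residual degrees of freedom, an intensity trend and Benjamini-Hochberg adjustment within each of 6 comparisons. A pseudocount of 1 understates the change of low genes. Group means are given as mean ± SD, and fold values are ratios of group means. Ratios of subunits were tested by exact permutation. FPKM depend on the library total, and 2 other scalings were tried beside a pseudocount of 0.1, no filter, fits of only the groups compared, a replicate block and leaving out each library.

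Changes are given in every comparison for the immunoproteasome genes, Psme1 and Psme2, levels for the replaced partners Psmb5, Psmb6 and Psmb7, and changes for the 3 members with the largest rise and fall among those that passed, or the 3 with the smallest unadjusted p where none did. Psma5 is named because earlier results named it, and other members given with values (Psme2b, Psmc5, Psmg4) were chosen after their values were seen. Of the pathway and antigen lists, up to 3 passing genes for each role were eligible. Depth was recovered from the steps of low FPKM values and GENCODE M21 exon lengths. Of the values with the fewest fragments, 91.0% to 92.9% were then whole within 0.02, and of all low values 77.3% to 91.25%. Depth was chosen to make such shares high, so they are not a separate check. Sequences shared with other genes were found as 75-base words in GENCODE M21 transcripts. The pipeline was tested on simulated data. Some genes of the fixed lists are counted but not reported here by name.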

Additional observations from a re-analysis of the deposited data

Results flagged for a closer look

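In 98 groups of 4 libraries, 1 library stood far from the other 3 in 7 cases, and chance gives about 1 in 20. All 7 lie in the circRNA group. In circRNA replicate 3, Psma7 was at 10.4 FPKM (others 8.44 to 8.72), Psmb5 at 17.0 (others 11.6 to 12.4), Psmd2 at 18.0 (others 15.4 to 15.7), Psmd3 at 10.5 (others 8.85 to 9.06) and Psmd14 at 7.31 (others 5.75 to 5.80). In circRNA replicate 4, Psma4 was at 7.10 FPKM (others 8.07 to 8.22) and Psmd1 at 6.19 (others 6.91 to 6.98).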

How the results depend on the processing

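For single genes, 466 of 540 alternative values kept their direction and their side of the threshold, counting results not called that stayed so. Of the rest, 60 lost a call, 11 changed sign and 3 gained a call. Rescaling to the same FPKM sum changed the counts against wild type to 9 in 5xFAD EGFP (2 as reported) and 20 in PKR knockout (12), with 13 with circRNA (19), where 34.3%, 61% and 52.5% of all genes were called. It moved the members' medians to -0.10, -0.024 and -0.12 (5xFAD EGFP, circRNA and PKR knockout), the core's to -0.052, 0.021 and -0.12, the regulatory particle's to -0.14, -0.085 and -0.14, the activators' to -0.031, 0.23 and 0.28, and the immunoproteasome's with circRNA to 0.31. For circRNA minus EGFP it gave 0.11 for the activators and 0.058 for the regulatory particle, and Psmb10 in 5xFAD EGFP turned to -0.14. Median-ratio scaling gave 5 calls in 5xFAD EGFP and 1 between circRNA and PKR knockout (16.1% and 7.81% of all genes), medians of 0.57 (activators, PKR knockout against wild type), 0.0038 (activators) and 0.012 (regulatory particle, both circRNA minus PKR knockout), and turned Psmb9 to -0.032 and Psme1 to -3e-05 in that comparison. Without a filter, 1 member was called in 5xFAD EGFP and 1 between circRNA and PKR knockout (10.4% and 2.45% of all genes). Fits of only the groups compared gave 0 calls in 5xFAD EGFP, 9 with circRNA against wild type and 1 (Psme2b) for PKR knockout minus EGFP, from fewer samples, with 4.71%, 15.9% and 5.33% of all genes.

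Leaving out each library in turn gave 0 to 2 calls in 5xFAD EGFP, 14 to 25 with circRNA, 7 to 11 in PKR knockout (7 without PKR knockout replicate 1) and 1 to 2 between circRNA and PKR knockout, where 5.23% to 18.5%, 20.1% to 26.5%, 28.7% to 35.6% and 1.36% to 4.68% of all genes were called. Activator medians ranged over 0.038 to 0.22 (5xFAD EGFP against wild type), 0.41 to 0.60 (circRNA against wild type), 0.017 to 0.42 (circRNA minus EGFP) and -0.10 to 0.30 (PKR knockout minus EGFP). Estimates that changed sign were Psmb10 in 5xFAD EGFP (-0.21 to 0.25), Psme2 for PKR knockout minus EGFP (-0.10 to 0.30), and Psmb8 (-0.11 to 0.063) and Psmb9 (-0.029 to 0.18) for circRNA minus PKR knockout. The log2 ratio of Psmb9 to Psmb6 ranged from -0.19 to 0.064 with circRNA against wild type. That of Psmb10 to Psmb7 ranged from -0.22 to 0.14 in 5xFAD EGFP and -0.072 to 0.20 with circRNA against wild type, and from -0.039 to 0.32 for circRNA minus EGFP. The cause of these changes was not tested.

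The labels tie libraries across groups by numbers only, and the numbers 10 to 13 in the circRNA treatment labels and the PKR knockout library names run in the order of replicates 1 to 4 and give the same pairs. The correlations of the deviations of same-numbered libraries ran from -0.42 to 0.69 (means of 0.022 to 0.33 over the 6 comparisons). Differently numbered libraries had means of -0.11 to -0.020, below the same-numbered mean in every comparison. Between circRNA and PKR knockout the same-numbered pairs ran from 0.036 to 0.55. In none of the 3 comparisons with 3 or more such pairs was every correlation over 0.1. With the number as a replicate block, 1 member was called in 5xFAD EGFP, 17 with circRNA and 11 in PKR knockout against wild type, and 1 between circRNA and PKR knockout, where 12.1%, 24.8%, 35.8% and 4.14% of all genes were. Depth gave every member at least 103 fragments in every library.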
